A study of Mus musculus with 10 samples.

Results

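Endolymph, the fluid that bathes the tops of the inner ear's hair cells, is rich in potassium, and 5 genes of the machinery that puts it there are described here: Kcne1, Kcnq1, Slc12a2, Kcnj10 and Bsnd. They were chosen by symbol, as 5 of the 32285 genes in the count tables, and were followed through cell classes rebuilt from single-cell RNA sequencing of the cochlear and the vestibular sensory epithelium. All mice were wild-type CBA/J animals of 22 months with no treatment, so the groups differed in organ only, and each library pooled several mice of both sexes. The labels number 5 libraries for each organ, and 4 per organ were used (replicates 1, 3, 4 and 5), because replicate 2 repeated replicate 1. No library of young animals entered the analysis. The level of a gene is given as CPM, its unique molecular identifiers (UMIs) per 1000000 UMIs summed over the cells of a class in a library. Since the chemistry counts the 3′ end of each transcript once, these values can be compared between genes without a length correction.

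The libraries held 571 to 5438 kept cells each, 7272 in Cochlea and 10424 in Vestibule, and 2738036 to 26974948 UMIs in total before cells were filtered. All 1313 barcodes of Cochlea replicate 2 were also in replicate 1, and 1633 of the 1641 of Vestibule replicate 2 were, with a median correlation of 0.955 and 0.968 between the cells of a shared barcode. These pairs differed by less than the sampling noise and were counted as 1 sample, while any other pair of libraries shared at most 41 barcodes. Cells were clustered with the 5 genes left out, and clusters were named from marker lists, so that each class is called "-like". Of the cells, 29.2% in Cochlea and 19.3% in Vestibule lay in clusters that met no naming rule. The 95% intervals of shares of cells are exact Clopper-Pearson intervals, and a limit from a count of 0 is 3 divided by the number of cells. Both cover counting error only.

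Potassium reaches endolymph through the marginal cells of the cochlear stria vascularis and through the dark cells of the vestibular organs. Slc12a2 (NKCC1) brings sodium, potassium and chloride into these cells from the basolateral side and Bsnd (barttin) is an accessory subunit that serves the exit of chloride on the same side. Kcnq1, the pore, and Kcne1, its accessory subunit, form the apical channel through which potassium leaves into endolymph. Kcnj10 (Kir4.1) belongs to other cells: in the stria it is the potassium channel of the intermediate cells, which are of melanocyte origin and on which the endocochlear potential depends, and it is also known in supporting cells and glia. Loss of Kcnq1, Kcne1, Slc12a2 or Bsnd causes deafness in mice, and in people loss of Kcnq1 or Kcne1 gives deafness with a long QT interval.

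In GRCm38 with the GENCODE M21 annotation, Kcnj10 (ENSMUSG00000044708) lies at chr1:172341210-172374085 on the plus strand, Bsnd (ENSMUSG00000025418) at chr4:106483456-106492283 on the minus strand and Kcne1 (ENSMUSG00000039639) at chr16:92345982-92359468 on the minus strand. Kcnq1 (ENSMUSG00000009545) spans chr7:143106362-143427042 on the plus strand, and the antisense gene Kcnq1ot1 (chr7:143203458-143296549, minus strand) lies within it. Slc12a2 is ENSMUSG00000024597. Reads of Kcnq1 and Kcnq1ot1 can be told apart only where the counting used strand, which the sources used here do not state.

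One class carried the secretory set together. In Vestibule, a cluster of 106 cells (1.02% of the kept cells; 13, 61, 21 and 11 cells in replicates 1, 3, 4 and 5) had 5 of the 9 secretory epithelial markers enriched, namely Atp1b2, Esrrb, Hmx2, Hmx3 and Lrp2. It is called secretory-like below. Tmem72, another marker on that list, had 0 UMIs in it. No cochlear cluster met the rule for this class, so the organs could not be compared in secretory-like cells, and all levels between classes that follow are a description with no test, since the clusters were made from the same cells.

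Kcne1 in the secretory-like cells was at 1033, 2039.7, 2669.8 and 1612 CPM in replicates 1, 3, 4 and 5. The mean was 1839 ± 691 CPM (SD, n = 4). Each of the 4 libraries stood far above every other named vestibular class, of which the next, the melanocyte-like cells, reached 121 CPM in replicate 3 and 0 in the other libraries. Kcnq1, the pore that Kcne1 accompanies, was at 177, 294, 339 and 403 CPM, a mean of 303 ± 95.2 CPM (SD, n = 4). Here too the lowest secretory-like library lay above the highest library of any other class, 40.8 CPM in the supporting-like cells. On the log2 scale, Kcne1 UMIs exceeded those of Kcnq1 by 2.54 ± 0.43 (SD, n = 4, with 0.5 UMIs added to each count), and in every library.

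Slc12a2, the cotransporter that loads the cells, was the most abundant of the 5 genes in this class. It was at 7172, 5065, 6108 and 4165 CPM in replicates 1, 3, 4 and 5, with a mean of 5627 ± 1300 CPM (SD, n = 4). The next vestibular class was the glia-like cells with 455, 489 and 673 CPM in replicates 3, 4 and 5, and the ranges did not overlap. Relative to Kcnq1, Slc12a2 UMIs were higher by 4.20 ± 0.78 on the log2 scale (SD, n = 4). 

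Bsnd was scarce, with 22 UMIs over the 106 cells, and its levels were 148, 48.2, 78.1 and 44.8 CPM (79.7 ± 47.7, SD, n = 4). It was above every other vestibular class, of which the other epithelial-like cells came next at 0, 0.558, 0 and 16.95 CPM.

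Kcnj10 did not belong to this set. It was counted in replicate 3 only, at 26.8 CPM (5 UMIs in 2 cells), and was at 0 in the other 3 libraries. Its share of secretory-like cells with a UMI, 1.89% (95% interval 0.229 to 6.65), lay below the 3.29% of vestibular macrophage-like cells, which should lack the gene, so it is read as background. The median depth was 1755 UMIs in the secretory-like and 2765 in the macrophage-like cells.

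Cell by cell, Slc12a2 was seen in 83.0% of the secretory-like cells (95% interval 74.5 to 89.6), Kcne1 in 76.4% (67.2 to 84.1), Kcnq1 in 40.6% (31.1 to 50.5) and Bsnd in 12.3% (6.69 to 20.1). In the macrophage-like cells the same shares were 6.85%, 0.822%, 0.548% and 0 of 365 cells, which allows a share of up to 0.822%. With every cell thinned to 1000 UMIs the secretory-like shares were 77.5%, 66.3%, 18.5% and 5.08%, against 3.09%, 0.601%, 0.338% and 0% in macrophage-like cells. All 4 genes therefore stood above this background. Kcnq1 was found almost only together with its subunit: 42 cells had both Kcne1 and Kcnq1, and 1 had Kcnq1 without Kcne1. Kcne1 and Slc12a2 shared 72 cells, 41 cells had Kcne1, Kcnq1 and Slc12a2, and 8 had none of the 5 genes. Replicate 1 had the lowest share of cells with Kcne1, 38.5% of 13 cells, against 81.0% to 82.0% in the other libraries.

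**Figure D1:**
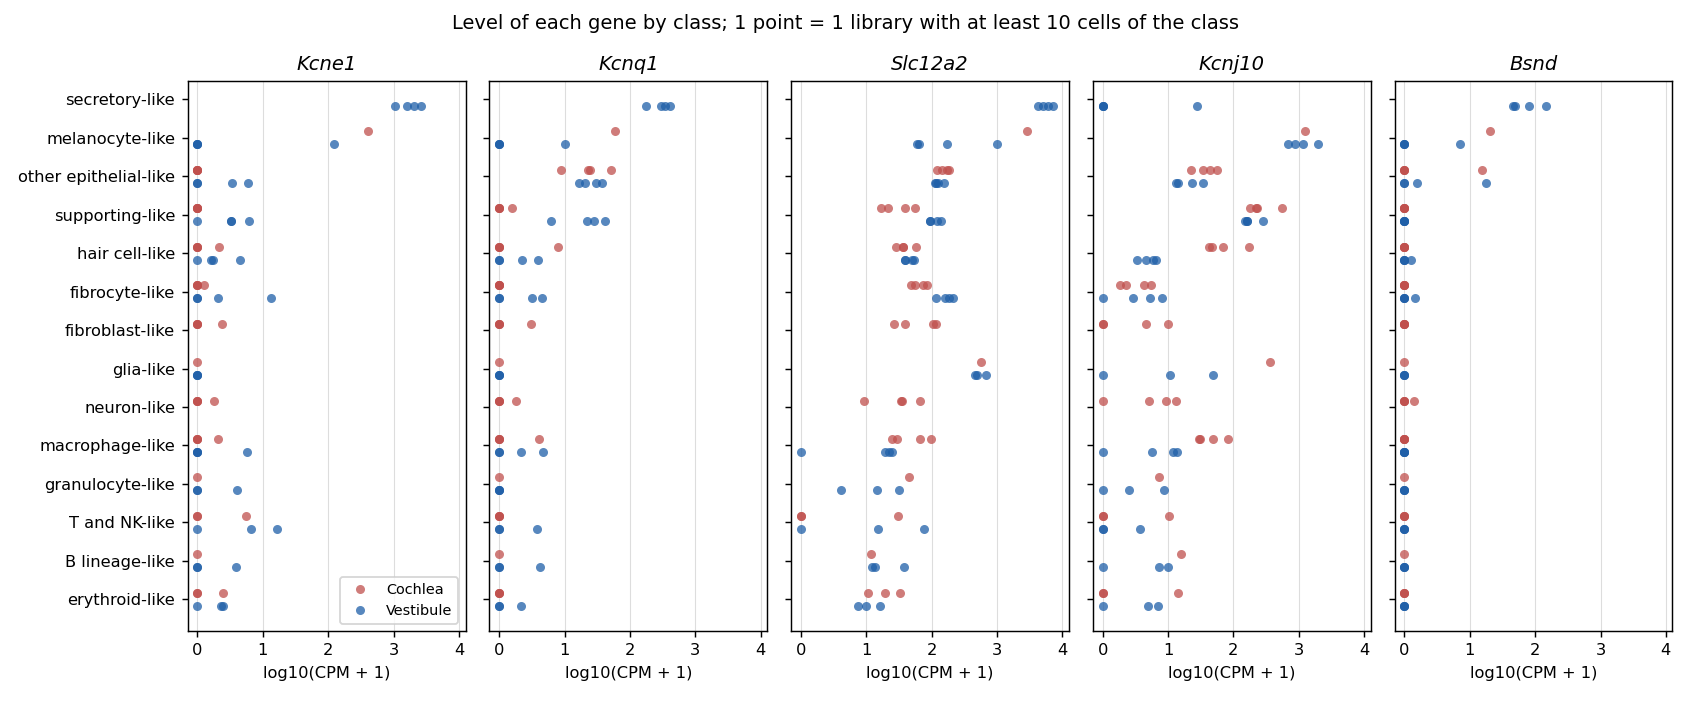
Level of each of the 5 genes (log10 of CPM + 1, horizontal) by cell class (vertical), 1 point per library with at least 10 cells of the class, Cochlea in red and Vestibule in blue. The 4 secretory-like libraries are at the right end for Kcne1, Kcnq1, Slc12a2 and Bsnd, whereas Kcnj10 is highest in melanocyte-like cells.

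How much of each transcript the secretory-like cells held differed sharply between the genes. They made up 0.658% to 1.50% of a vestibular library's kept cells, yet held 94.6%, 75.3%, 96.2% and 90.0% of the Kcne1 UMIs in replicates 1, 3, 4 and 5. For Slc12a2 the shares were 38.6%, 29.2%, 45.3% and 32.9%, and for Kcnq1 11.5%, 29.4%, 36.6% and 48.6%. Kcne1 was thus close to restricted to these few cells, whereas the larger part of the Kcnq1 and Slc12a2 transcripts was counted elsewhere in all 4 libraries. Of the vestibular Bsnd UMIs, 5 of 5, 9 of 15, 6 of 6 and 2 of 9 were in secretory-like cells, and in replicate 5 the other epithelial-like cells held 7 of the 9. Of Kcnj10 0.322% were.

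**Figure D2:**
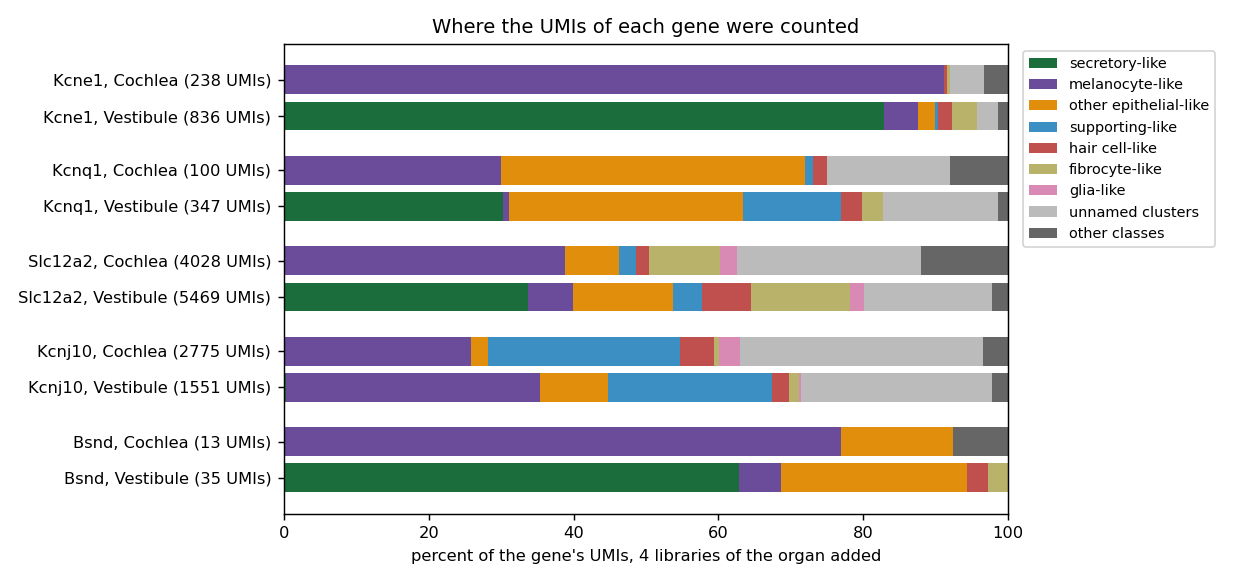
Percent of each gene's UMIs (horizontal) counted in each cell class, with the 4 libraries of an organ added. Secretory-like cells (green) hold 82.9% of vestibular Kcne1 but 33.7% of Slc12a2 and 30.3% of Kcnq1, and melanocyte-like cells (purple) hold 91.2% of cochlear Kcne1.

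Other members of the potassium pathway came from a list of 18 genes, of which 13 had UMIs in the secretory-like cells. The genes named next were chosen after their values were seen. Atp1b1, a subunit of the sodium-potassium ATPase, was at 100.02 ± 13.8 CPM (SD, n = 4). This was low beside the vestibular clusters of other epithelial-like cells, which had 350 to 1354 CPM of it. Stk39, a kinase that activates Slc12a2, was at 273 ± 54.0 CPM and Wnk1, which acts upstream of it, at 129 ± 51.9 CPM. Kcne2, Kcne3, Kcnj13 and Adrb1 were among those with 0 UMIs in the 106 cells.

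In Cochlea the 5 genes met in a different place. A cluster of 139 cells named melanocyte-like (131 in replicate 3, 8 in replicate 5 and none in replicates 1 and 4) had Kcne1, Kcnq1, Slc12a2, Kcnj10 and Bsnd at 405, 58.1, 2872, 1256 and 19.4 CPM in replicate 3. In the 8 cells of replicate 5 they were at 224, 0, 2350, 1902 and 0 CPM. These cells held 217 of the 238 cochlear Kcne1 UMIs, 30 of the 100 Kcnq1 UMIs and 10 of the 13 Bsnd UMIs, and replicates 1 and 4 had no Kcne1 UMI in any kept cell. The cochlear Kcne1 values therefore rest on replicate 3, for which no other library gives a check of more than 8 cells.

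Reclustering the melanocyte-like cells set apart where the genes lay. Cochlear subcluster 1, with 53 cells and a median of 6334 UMIs, had Kcne1 at 557, Kcnq1 at 80.7, Slc12a2 at 3527, Kcnj10 at 1189 and Bsnd at 27.8 CPM. Its cells had markers of both kinds, though not all of either list. Dct, an enzyme of melanin synthesis, was in 92.5% of them, Mlana in 79.2%, Tyr in 62.3% and Mitf in 54.7%. The melanocyte markers Pmel and Tyrp1 had 0 UMIs. The secretory markers Esrrb, Lrp2 and Atp1b2 were in 35.8%, 49.1% and 52.8%. The others on that list were lower: Abcg1 and Wnk2 at 26.4% each, Heyl at 22.6%, Hmx2 at 18.9%, Hmx3 at 7.55% and Tmem72 at 0%. Subcluster 2, with 25 cells and a median of 2730 UMIs, had neither Kcne1 nor Kcnq1 nor Bsnd, but Slc12a2 at 2063 and Kcnj10 at 2102 CPM. Subcluster 0 (61 cells, median 1497 UMIs) lay between them for Kcne1 with 147 CPM. In all 3, Kcnj10 was above 1000 CPM and Slc12a2 was in at least 77.0% of the cells, whereas the apical channel genes were concentrated in the deepest one.

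**Figure D3:**
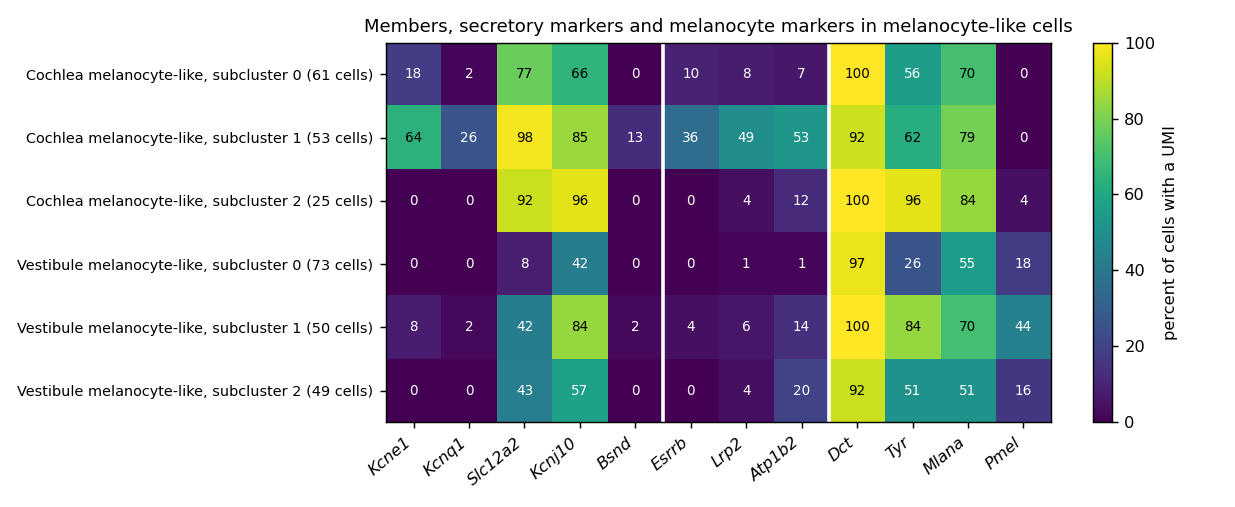
Percent of cells with a UMI (colour and number) of the 5 genes, 3 secretory markers and 4 melanocyte markers (columns) in 3 cochlear and 3 vestibular subclusters of melanocyte-like cells (rows of the map). Of the 6 subclusters, cochlear subcluster 1 has the highest shares of Kcne1 (64%), Esrrb, Lrp2 and Atp1b2.

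Within single barcodes, 41 of the 139 cochlear melanocyte-like cells (29.5%) had both Kcne1 and Dct, with a median of 5790 UMIs. Another 94 had Dct without Kcne1 and a median of 2029 UMIs, and 4 had Kcne1 without Dct. The barcodes with both were the deeper ones, and no doublet caller was run, so the part of 2 cells under 1 barcode in this result was not tested. In the vestibular melanocyte-like cells, 4 of 172 had both genes, with a median of 13678 UMIs, and all 39 of their Kcne1 UMIs came from replicate 3.

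Kcnj10 was highest in melanocyte-like cells in both organs. In Vestibule it was at 1984, 1151, 885 and 683 CPM in replicates 1, 3, 4 and 5 (1176 ± 572, SD, n = 4), above every other vestibular class and close to the 1256 CPM of Cochlea replicate 3. The supporting-like cells followed, with the lowest Vestibule library at 149 CPM. Slc12a2 parted from Kcnj10 here: vestibular melanocyte-like cells had 59.2, 986.8, 172 and 62.1 CPM, so that every one lay below the cochlear 2872 CPM, and the highest was replicate 3, the library with Kcne1 in this class. Glia-like cells had Slc12a2 at 567 CPM in Cochlea replicate 3, and Kcnj10 at 358 CPM there against 47.9, 0 and 9.89 CPM in Vestibule replicates 3, 4 and 5. The 10 leading genes of the cochlear glia-like cluster included Mog, a gene of central myelin, and those of the vestibular one Prx, of peripheral myelin, so the same name covered different cells.

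Kcnq1 was also counted where few or no UMIs of its subunit were. In other epithelial-like cells, named from epithelial markers outside the supporting and secretory-like lists, Kcnq1 was at 49.8, 23.5, 22.0 and 7.68 CPM in Cochlea (25.7 ± 17.5, SD, n = 4) and at 36.1, 19.3, 15.5 and 29.1 CPM in Vestibule (24.99 ± 9.35). The groups overlapped throughout. The vestibular class included clusters led by Bpifa1 (138 cells, all in replicate 3) and AU040972 (107 cells, 103 in replicate 3). Kcnq1 was at 11.7 and 7.78 CPM in these clusters. Kcne1 was at 0 in all 619 cochlear cells of this class, which allows a share of cells with a UMI of up to 0.485% and at this depth sets no limit on cells that express it, and had 19 UMIs against 112 of Kcnq1 in the 1704 vestibular cells. Kcne1 UMIs were thus fewer than those of Kcnq1 here, in contrast to the secretory-like cells with 693 against 105. Kcnq1 was seen in 5.82% of these cells in Cochlea (thinned 2.05%, median 2163 UMIs) and 6.103% in Vestibule (thinned 2.20%, median 2012 UMIs), against 0.258% and 0.548% of macrophage-like cells (thinned 0.192% and 0.338%), and so stood above background. 

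By cluster, Kcnq1 was spread over several groups of these cells. The vestibular cluster led by Vcan had 30.6 CPM of Kcnq1, and the clusters led by Vmo1 had 22.98 CPM in Vestibule and 31.2 CPM in Cochlea. The cochlear Vmo1 cluster also listed the secretory markers Lrp2 and Tmem72 among its 10 leading genes, and it had 0 UMIs of Kcne1. Over the 30 clusters of an organ, Kcnq1 correlated with Kcne1 on the log2(CPM + 1) scale with Pearson's r = 0.51 in Cochlea and 0.52 in Vestibule. Clusters share libraries and depth, so these are descriptions. Bsnd had 2 UMIs in the cochlear and 9 in the vestibular cells of this class.

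**Figure D4:**
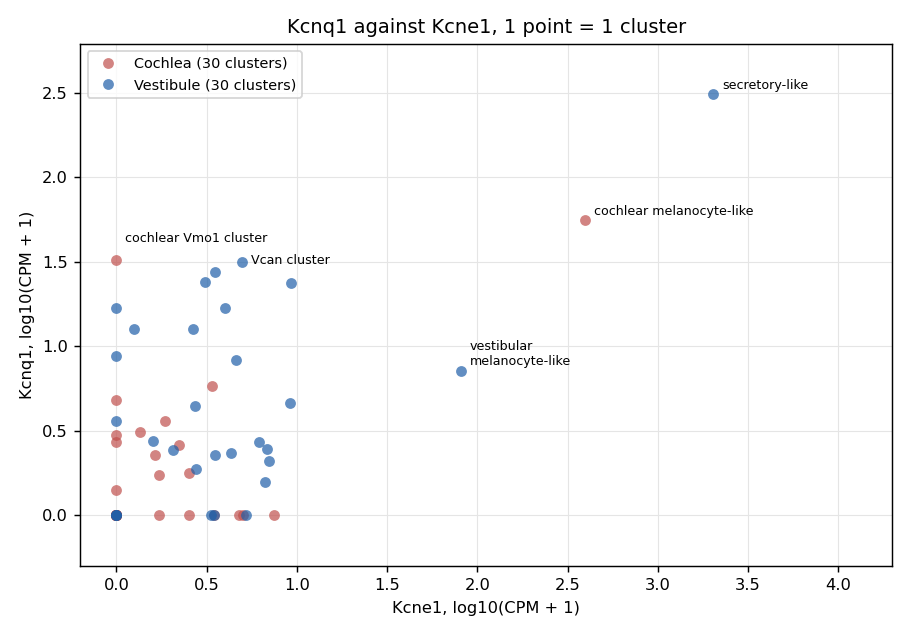
Level of Kcnq1 (vertical) against Kcne1 (horizontal), both as log10 of CPM + 1, 1 point per cluster with 30 clusters in each organ, Cochlea in red and Vestibule in blue. Several clusters near or at 0 for Kcne1 have Kcnq1, among them the Vcan cluster with 30.6 CPM of Kcnq1.

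The comparison between organs asked whether the same kind of cell carried more of these genes in one organ than in the other. UMIs were summed per library and class and tested with edgeR's quasi-likelihood test over all genes, with Benjamini-Hochberg adjustment and a threshold of 0.05. A log2 difference below is Vestibule minus Cochlea with its SE. The libraries of an organ were separate pools of mice, and the p-values measure the spread between these pools. Clustering was done in each organ alone, so a class was held by different clusters in the organs, for example 2 in Cochlea and 5 in Vestibule for the hair cell-like cells.

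In supporting-like cells, 28.9% of the 6166 genes tested passed the threshold. Slc12a2 and Kcnj10 were the members that passed the filter on low counts. Slc12a2 was at 54.5, 38.0, 20.3 and 15.6 CPM in Cochlea and at 139, 121, 93.5 and 92.7 CPM in Vestibule. All vestibular libraries lay above all cochlear ones, and the log2 difference was 1.80 ± 0.28 (adjusted p = 3.50e-05). Seen per cell, Slc12a2 was in 9.71% of the cochlear cells (thinned 3.84%), at the level of the cochlear macrophage-like cells (9.04%, thinned 4.37%), and in 27.0% of the vestibular cells (thinned 10.0%) against 6.85% (thinned 3.09%) of macrophage-like cells. Against macrophage-like cells the cochlear value is therefore read as background. Its mean of 32.1 CPM was above the 19.9 CPM of erythroid-like and 10.0 CPM of T and NK-like cochlear cells, with overlapping ranges. B lineage-like cells had 10.9 CPM in 1 library. The 8 supporting cell markers summed to 1321 to 1982 CPM in Cochlea and to 4611 to 6769 CPM in Vestibule, and the 9 secretory markers to 141 to 323 and 330 to 416 CPM. Kcne1 had 0 UMIs in the cochlear and 4 in the vestibular supporting-like cells, beside 220 UMIs of Slc12a2 in the latter.

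Kcnj10, the channel for which supporting cells are known, was at 552, 221, 228 and 179.5 CPM in the cochlear and at 278, 162, 163 and 149 CPM in the vestibular supporting-like cells. The groups overlapped, and the log2 difference of -0.61 ± 0.29 did not pass (adjusted p = 0.120). In both organs replicate 1, for which the file headers give another Cell Ranger version than for replicates 3, 4 and 5, was the highest library. Vestibule was lower than Cochlea within each replicate number, and with the number as a block the difference was -0.59 (adjusted p = 0.00369), although the numbers were not shown to pair the libraries. Without replicate 1 in both organs it was -0.42 (adjusted p = 0.0685), without Cochlea replicate 1 -0.22 (adjusted p = 0.438) and without Vestibule replicate 1 -0.81 (adjusted p = 0.0426). The cochlear cluster led by Rbp7, which also listed Tectb and Fgfr3 among its leading genes, had 483 CPM of Kcnj10.

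Kcnq1 in supporting-like cells did not pass the filter on low counts, as too few libraries had enough UMIs. It was at 0, 0.567, 0 and 0 CPM in Cochlea (1 UMI in 824 cells) and at 40.8, 21.05, 26.7 and 5.15 CPM in Vestibule (47 UMIs in 563 cells). The groups did not overlap, and the exact two-sided permutation test of these 4 against 4 libraries gave p = 0.0286, the smallest it can give. The ratio of the pooled CPM was 73.6, with a 95% counting interval from 12.6 to 2968. Without the filter, edgeR gave a log2 difference of 5.37 ± 0.77 (adjusted p = 7.90e-11). The permutation test and the ratio were not planned for this class. They were run on this gene with its levels known, so the p-values given here for it are descriptive. Kcne1 had 4 UMIs in the same vestibular cells, so Kcnq1 exceeded its subunit, the reverse of their order in the secretory-like cells. The 10 markers of other epithelial cells summed to 1590 to 2566 CPM in Cochlea and to 2531 to 4704 CPM in Vestibule in this class, and their part in the result was not tested.

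In fibrocyte-like cells, the connective tissue cells that take part in potassium recycling, 23.7% of 8784 genes passed, and Slc12a2 was the one member tested. It was at 84.2, 54.6, 46.8 and 71.8 CPM in Cochlea and at 184, 213, 160.4 and 115 CPM in Vestibule, without overlap (log2 difference 1.89 ± 0.23, adjusted p = 1.12e-06). Scaled by library size alone the difference was 1.46, since that scaling moved the median of all genes to -0.43. The fibrocyte class differed in makeup between the organs: its 7 markers summed to 7144 to 10089 CPM in Cochlea and to 33135 to 39338 CPM in Vestibule, and the 6 endothelial markers to 1603 to 2274 against 13.5 to 22.4 CPM. A cochlear cluster led by Otos (225 cells, 174 of them in replicate 3) met no naming rule and stayed outside the class. Like the vestibular fibrocyte-like cluster led by Gm525, it had Otos, Gm525, Ptgds and S100b among its leading genes. Its pooled Slc12a2 level was 282 CPM, against 184 and 188 CPM in the vestibular clusters of the class and 68.7, 42.2 and 79.3 CPM in the cochlear ones. The part of these differences in makeup in the result was not tested.

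In hair cell-like cells, 37.3% of 8930 genes passed, and Kcnj10 and Slc12a2 were tested. Kcnj10 was at 169, 46.6, 68.6 and 41.6 CPM in Cochlea and at 3.63, 5.65, 2.39 and 4.95 CPM in Vestibule. Every cochlear library lay above every vestibular one. The log2 difference was -4.05 ± 0.42 (adjusted p = 2.28e-07), and Kcnj10 entered the test through the cochlear libraries, the group where it was high. The cochlear levels overlapped those of the cochlear macrophage-like cells, 47.0, 29.8, 28.5 and 80.3 CPM, and the thinned share of cells was 4.34% against 3.07%. Other cochlear classes had less Kcnj10 than macrophage-like cells. The means were 2.45 CPM in fibrocyte-like, 3.08 in T and NK-like, 3.19 in fibroblast-like, 4.33 in erythroid-like and 6.26 in neuron-like cells. Supporting-like cells had a mean of 295 CPM. The vestibular macrophage-like cells had 0, 12.9, 10.9 and 4.66 CPM. The 8 supporting cell markers summed to 330 to 632 CPM in the cochlear and to 198 to 263 CPM in the vestibular hair cell-like cells, with Otog, Otogl, Slitrk6, Lfng and Fgfr3 higher and Sox2, Prox1 and Tectb lower in Cochlea. The part of free RNA and of supporting cell transcripts in this difference was not tested.

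Slc12a2 in hair cell-like cells was at 57.5, 35.5, 27.5 and 35.2 CPM in Cochlea and at 48.4, 52.0, 37.7 and 37.5 CPM in Vestibule. The groups overlapped and the log2 difference was 0.19 ± 0.25 (adjusted p = 0.598). The thinned shares of cells, 4.60% and 4.36%, were near the 4.37% and 3.09% of macrophage-like cells. In CPM, macrophage-like cells were at 23.5 to 97.5 in Cochlea, which overlapped the hair cell-like range. In Vestibule they were at 0 to 23.3 CPM, below every hair cell-like library.

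**Figure D5:**
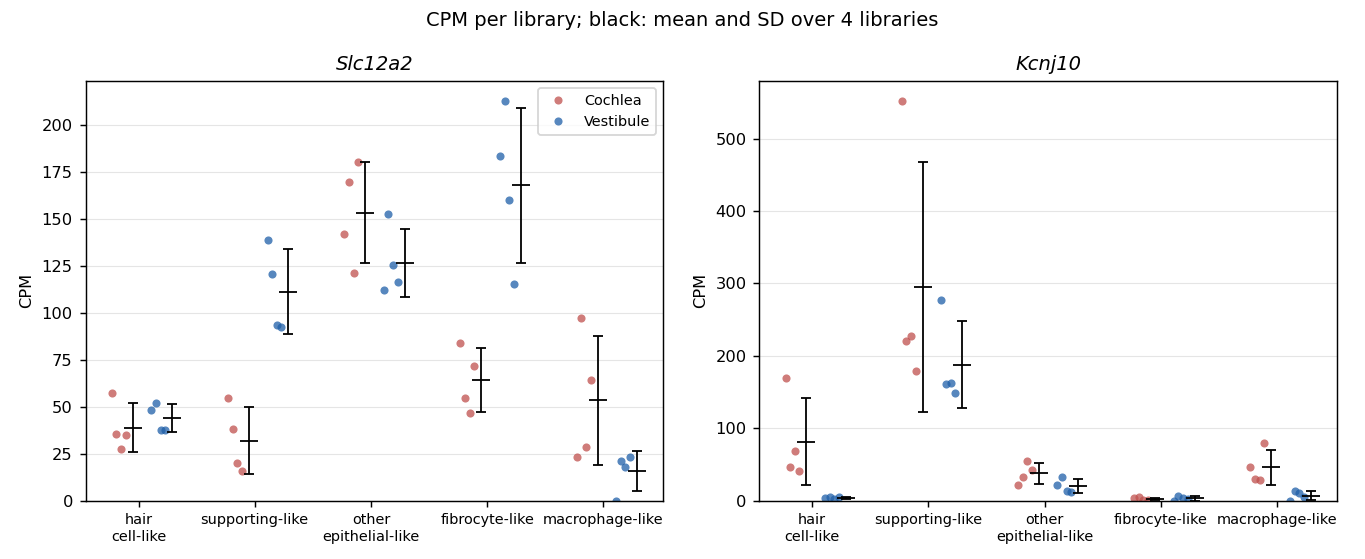
CPM (vertical) of Slc12a2 (left) and Kcnj10 (right) per library in 5 cell classes, Cochlea red and Vestibule blue, with the mean and SD of 4 libraries in black. For Slc12a2 the vestibular libraries are higher in supporting-like and fibrocyte-like cells and mixed with the cochlear ones in hair cell-like cells, and for Kcnj10 the organs part in hair cell-like cells.

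In other epithelial-like cells, 9.80% of 6552 genes passed and none of the 3 members tested did. Kcnq1 differed by 0.02 ± 0.41 on the log2 scale (adjusted p = 0.998), Slc12a2 by -0.22 ± 0.21 (0.627) and Kcnj10 by -0.68 ± 0.37 (0.319). Kcnj10 was at 21.3, 33.1, 55.1 and 42.2 CPM in Cochlea and at 22.1, 33.2, 13.1 and 12.1 CPM in Vestibule, with overlapping groups. Slc12a2 was at 142, 169.7, 121 and 181 CPM in Cochlea and at 112, 153, 125 and 116 CPM in Vestibule, also overlapping. The vestibular clusters led by Bpifa1 and AU040972, found almost only in replicate 3, had 353 and 168 CPM of it. Among the named cochlear classes, only the melanocyte-like and glia-like cells had a higher level of Slc12a2. Unnamed cochlear clusters led by Lmo3, Otos and Dmp1 were also higher, at 341, 282 and 204 CPM. With the deep clusters of mixed markers kept in the classes, Kcnq1 (1.11, adjusted p = 0.0402) and Kcnj10 (-2.57, adjusted p = 0.000499) passed in this class. Erythroid-like cells (6.55% of 3666 genes) had Slc12a2 tested without a call (-0.46 ± 0.54, adjusted p = 0.700). No member passed the filter in macrophage-like cells, where 0.644% of 2638 genes passed, or in T and NK-like cells, where 0% of 1424 genes passed with edgeR and with DESeq2 and 50 genes had an unadjusted edgeR p under 0.05.

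Whether the organ difference of a gene varied between classes was tested for Slc12a2 and Kcnj10 on the difference in log2 CPM between 2 classes of a library, with exact two-sided permutation tests of 4 against 4 libraries, over 12 pairs chosen after the class results were seen. The log2 level of Slc12a2 in hair cell-like minus that in supporting-like cells was -1.35 ± 0.12 in Vestibule and 0.40 ± 0.55 in Cochlea (SD, n = 4 each), a difference of -1.74 between the organs. In supporting-like minus other epithelial-like cells it was -0.19 ± 0.33 and -2.38 ± 0.87, a difference of 2.19. For Kcnj10 in hair cell-like minus supporting-like cells the means were -5.41 ± 0.67 and -1.92 ± 0.27, a difference of -3.48. In 7 of the 12 pairs, these 3 among them, the libraries of the organs did not overlap, and the exact permutation test gave p = 0.0286, the smallest it allows, and an adjusted p of 0.0490. Because the pairs were chosen with the class values known, these p-values are descriptive. Several of the pairs include cochlear values that overlap those of macrophage-like cells (Slc12a2 in hair cell-like and supporting-like cells, Kcnj10 in hair cell-like cells). Others include values of a few CPM (Kcnj10 in fibrocyte-like cells).

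Summed over all kept cells, 24.7% of 14530 genes passed, and of the 4 members tested 1 did. In such sums, fewer cells of a type and less RNA per cell cannot be told apart. Kcnq1 was at 3.88, 3.88, 1.84 and 1.19 CPM in Cochlea and at 15.6, 9.89, 9.63 and 5.64 CPM in Vestibule. The groups did not overlap and the log2 difference was 1.88 ± 0.39 (adjusted p = 0.00558). Kcne1 was at 0, 11.4, 0 and 1.91 CPM in Cochlea and at 11.1, 26.8, 28.9 and 12.2 CPM in Vestibule, where Cochlea replicate 3, the library with nearly all melanocyte-like cells, overlapped the vestibular range. The log2 difference of 2.21 ± 0.87 did not pass (adjusted p = 0.0955), and without Cochlea replicate 3 it was 4.83 (adjusted p = 0.00329).

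Kcnj10 was at 211, 84.1, 73.6 and 68.7 CPM in Cochlea and at 87.5, 47.1, 31.2 and 21.03 CPM in Vestibule over all kept cells. Only Vestibule replicate 1 overlapped the cochlear range, and the log2 difference was -1.19 ± 0.42 (adjusted p = 0.0647). It passed without Vestibule replicate 1 (-1.56, adjusted p = 0.0200) and with replicate 1 left out in both organs (-1.12, adjusted p = 0.0139). Slc12a2 was at 98.5, 154, 73.0 and 88.7 CPM in Cochlea and at 189, 171, 141 and 86.3 CPM in Vestibule, with overlapping groups and a difference of 0.52 ± 0.27 (adjusted p = 0.212) that passed without Cochlea replicate 3 (0.81, adjusted p = 0.0349). Bsnd, with 13 and 35 UMIs, was not tested.

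Around the 5 genes, the list of 18 pathway genes moved in both directions. In hair cell-like cells 12 were tested, 3 were higher in Vestibule and 8 in Cochlea (37.3% of all genes passed), with a median log2 difference of -0.97 beside 0.03 over all genes. In fibrocyte-like cells the counts were 11, 3 and 6 (23.7% of all genes, median -1.64 beside -0.0019), and in supporting-like cells 10, 1 and 4 (28.9% of all genes, median -0.39 beside 0.01). In other epithelial-like cells 1 of 10 passed, higher in Vestibule (9.80% of all genes, median -0.08 beside 0.02), and over all kept cells 3 of 16 were higher in Vestibule and 7 in Cochlea (24.7% of all genes, median -0.35 beside 0.01). In erythroid-like cells 2 of 7 were higher in Cochlea (6.55% of all genes, median 0.37 beside -0.02), and none of 4 passed in macrophage-like (0.644% of all genes, median -0.01 beside 0.03) and none of 2 in T and NK-like cells (0% of all genes, median -0.49 beside 0.02).

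The genes of this list named here were chosen after their values were seen. Slc12a7, the potassium-chloride cotransporter KCC4 that takes up potassium around hair cells, was lower in Vestibule, with log2 differences of -5.02 ± 0.32 in hair cell-like, -4.10 ± 0.30 in supporting-like and -3.52 ± 0.34 in fibrocyte-like cells. Kcnj16, a partner subunit of Kcnj10, was lower in vestibular hair cell-like (-3.04 ± 0.37) and supporting-like cells (-1.63 ± 0.25). The gap junction gene Gjb6 was lower in vestibular hair cell-like and supporting-like cells (-2.54 ± 0.36 and -1.50 ± 0.21) and higher in vestibular fibrocyte-like cells (1.89 ± 0.37). All of these passed the edgeR threshold. In the cochlear supporting-like clusters led by Dgkb and Rbp7, Kcnj16 was at 568 and 988 CPM and Slc12a7 at 602 and 538 CPM. In the cochlear hair cell-like clusters led by Otof and Ocm, Kcnj16 was at 175 and 217 CPM and Slc12a7 at 230 and 96.8 CPM. The part of supporting cell transcripts in the hair cell-like differences was not tested.

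Across 25 groups, each a class in an organ, the genes whose mean log2(CPM + 1) was most like that of a member were found among 8953 genes that reached 50 CPM in a group. For Kcne1 they were Esrrb (Pearson's r = 0.97), Bsnd (0.96), 4930511M06Rik, Gpx6 and Rasgef1c (0.92 to 0.94). For Bsnd they were 4930511M06Rik, Rasgef1c, Gpx6, Kcne1 and Atp2c2 (0.95 to 0.97), 3 of which were also neighbours of Kcne1. Every neighbour of Kcne1 and of Bsnd was highest in the vestibular secretory-like group, and Bsnd reached 50 CPM in that group alone. These correlations therefore restate the high level in that group and are no separate result. Among the 5 for Kcnq1 were Myo5c, Krt7, Slco1a5 and Hmx2 (0.91 to 0.95), none of these 4 a neighbour of Kcne1. Slc12a2 (Gpx4, Rnf152, Slc6a8, Chpt1 and Gng7, 0.80 to 0.81) and Kcnj10 (Arhgef37, 5031439G07Rik, Tmcc3, Amdhd2 and Bace2, 0.75 to 0.82) had looser neighbours. Esrrb and Hmx2 were among the markers that named the secretory-like class, groups of an organ share libraries, and the cochlear melanocyte-like and glia-like groups rest on 1 library. Kcnj10 also followed Sox10, a factor known in melanocytes and glia and chosen after its values were seen, over the 30 clusters of Cochlea (r = 0.77) and of Vestibule (r = 0.75). Here Sox10 was not confined to such cells. It was at 241 and 284 CPM in the cochlear and vestibular melanocyte-like clusters. Epithelial clusters had as much, with 457 and 333 CPM in the cochlear ones led by Otoa and Dgkb and 346 CPM in the vestibular one led by Apoa4.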

How the data were processed

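The deposited files hold UMI counts per gene and barcode, which the authors made with Cell Ranger on the mm10 genome (version 5.0.1 in the headers of replicates 1 and 2, 6.1.2 in the others and in the submitters' processing notes) from 10x 3′ libraries; the mice, dissociation and sequencing were as the study's methods give them. From these counts, a barcode was kept if it had 200 genes or more, 1000 UMIs or more and a mitochondrial share under 25%, the limits of the study's methods. No doublet caller was run. Each organ was clustered with Seurat 5.3.0 (log-normalized, 2000 variable genes without the 5 members, 30 principal components, resolution 1). A cluster took a class from 17 marker lists where at least 3 of its markers were in 25% of cells at a log2 fold of 1 or more and led the next class by 2. Clusters deeper than 3 times the median with markers of 2 classes (1 per organ) stayed unnamed. UMIs were summed per library and class (at least 10 cells, 3 libraries per organ) and fitted with edgeR 4.0.16 (R 4.3.3; TMM, filterByExpr, quasi-likelihood). DESeq2 1.42.0, library size scaling, no filter, a replicate block, other resolutions and depth limits, and leaving out libraries were alternatives. The fits were tested on simulated counts. Replicate numbers were not shown to pair the libraries of the organs, so the main fits had no block. The organ comparison planned for secretory cells and for the ratios between members could not be run, since the class was found in Vestibule only. The rule for named genes took the 5 members, further pathway genes and the 5 genes most correlated with each member, and some genes are not reported here. Members, lists and classes were chosen with earlier results of these data known. With 4 libraries per organ, library totals of 2738036 to 26974948 UMIs set the precision.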

Additional observations from a re-analysis of the deposited data

Results flagged for a closer look

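Among 42 groups of 4 libraries (a member with at least 20 UMIs in a class of an organ), 7 had 1 library far from the others, with a gap to its neighbour above Dixon's 95% critical share of the group's range, where chance gives about 1 in 20. Kcnj10 stood apart in replicate 1, at 552 CPM in cochlear supporting-like cells (next 228), 278 CPM in vestibular supporting-like cells (next 163) and 211 CPM over all kept cochlear cells (next 84.1). Kcne1 stood apart in replicate 3, at 121 CPM in vestibular melanocyte-like cells (the others at 0), 12.5 CPM in vestibular fibrocyte-like cells (next 1.08) and 11.4 CPM over all kept cochlear cells (next 1.91). Slc12a2 did so in replicate 3 as well, at 986.8 CPM in vestibular melanocyte-like cells (next 172).

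For 7 of 12 pairs of classes, chosen after the class results were seen, the difference between Vestibule and Cochlea differed between the classes by the exact permutation test (p = 0.0286, adjusted 0.0490, 4 against 4 libraries, none overlapping). On the log2 scale these were, for Slc12a2, -1.74 for hair cell-like minus supporting-like cells, -1.21 for hair cell-like minus fibrocyte-like cells, 2.19 for supporting-like minus other epithelial-like cells and -1.66 for other epithelial-like minus fibrocyte-like cells. For Kcnj10 they were -3.48 for hair cell-like minus supporting-like cells, -3.05 for hair cell-like minus other epithelial-like cells and -4.47 for hair cell-like minus fibrocyte-like cells. In Cochlea, Slc12a2 in hair cell-like and supporting-like cells and Kcnj10 in hair cell-like cells overlapped the range of macrophage-like cells. Kcnj10 in fibrocyte-like cells was at 0 to 7.16 CPM, so these p-values are descriptive.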

How the results depend on the processing

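The called differences (Slc12a2 in supporting-like and fibrocyte-like cells, Kcnj10 in hair cell-like cells, Kcnq1 over all kept cells) kept direction and call in every alternative run. These runs reused the same libraries. Kcnj10 in hair cell-like cells entered the test through the cochlear libraries, where it was high. Slc12a2 in cochlear supporting-like cells was read as background against macrophage-like cells only. The direction turned only for differences that had not passed: Slc12a2 in erythroid-like cells (0.14 with the replicate block, -0.92 to 0.66 with libraries left out, the latter without Cochlea replicate 3), Slc12a2 in other epithelial-like cells (0.0042 with at least 2000 UMIs, 0.36 with the deep mixed clusters kept) and Kcnq1 there (-0.030 with the replicate block, -0.21 without Cochlea replicate 5 to 0.21 without Cochlea replicate 1, -0.047 without Vestibule replicate 5, -0.052 with replicates 1 and 2 averaged, -0.021 with all genes in the clustering). Genes called moved most in small classes, and the cause was not tested. Erythroid-like calls (240) were 134 with DESeq2, 641 by library size (6 higher in Vestibule and 635 in Cochlea, against 62 and 178, with the median of all genes at -0.91), 513 unfiltered, 502 with the block and 87 without the 10% deepest cells, and leaving out libraries gave 42 (Cochlea replicate 3) to 862 (Cochlea replicate 1). Macrophage-like calls (17) were 6 by library size, 194 unfiltered, 7 with the block, 55 at 2000 UMIs, 4 at resolution 0.5, 55 at resolution 2 and 51 with at least 20 cells, and 35, 28, 68, 1, 1 and 2 without Cochlea replicate 1 or 4 or Vestibule replicate 1, 3, 4 or 5, and 77 without replicate 1 of both. T and NK-like calls were 17 unfiltered and 21 with the block. Fibrocyte-like calls (2086) were 3322 by library size (569 and 2753 against 991 and 1095) and 3426 unfiltered. Other epithelial-like calls (642) were 411 at 2000 UMIs, 1644 with the deep mixed clusters kept and 397 (without Cochlea replicate 3) to 928 with libraries left out. Supporting-like calls (1779) were 3188 unfiltered, 874 at resolution 2 and 3532 with the deep mixed clusters kept, and resolution 0.5 gave no value. In secretory-like cells Kcne1 was 2654 CPM in cells of at least 2000 UMIs (2 libraries), and as a mean over cells Kcnq1 was 207 and Slc12a2 3766 CPM. Thinning gave shares of 66.3% for Kcne1, 18.5% for Kcnq1 and 5.08% for Bsnd. Same-numbered libraries of the organs correlated by 0.05 to 0.29 in their deviations and not each best with its own number. With the block, Kcne1 (3.00, adjusted p = 0.0497) and Kcnj10 (-1.21, 0.00188) over all kept cells and Kcnj10 in supporting-like cells (-0.59, 0.00369) passed, and no other call of a member changed. Kcnj10 over all kept cells also passed with DESeq2 (adjusted p = 0.0202) and without the deepest cells (0.00188), and in supporting-like cells unfiltered (0.00994) and with the deep mixed clusters kept (-1.30, 0.00203). Slc12a2 in other epithelial-like cells passed without the deepest cells (-0.78, 0.0135). The deep mixed clusters, replicate 1 left out in both organs, the tests between classes and the permutation test and ratio of Kcnq1 in supporting-like cells were chosen after seeing the data. Alternatives to the secretory organ comparison could not be run.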
